A study of Mus musculus with 6 samples.

Results

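The genes of glucose uptake, glycolysis and the glucose-responsive arrestin Txnip were described in the left ventricle of ethanol-fed mice. The set holds 36 genes, taken as the rows of the deposited tables whose identifier carries exactly the gene's symbol behind the Ensembl ID. They matched 37 of 55487 rows, since Aldoa stands in 2 rows, and 35 of those rows were among the 15727 that had enough counts to be tested. Aldoc and the second Aldoa row (ENSMUSG00000114515) were too low, at 0.0588 to 0.373 and 0.0374 to 0.187 CPM, the read count scaled to library size.

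Both groups were male wild-type C57BL/6 mice of 8 weeks, bought from a commercial breeder, and each group had 3 bulk RNA sequencing libraries. Mice of the ET group were kept for 10 days on a diet containing 5% ethanol, followed by 1 gavage of ethanol. Mice of the CONT group ate an isocaloric diet over the same days and received 1 gavage of maltose-dextrin, a glucose polymer. Left ventricles were collected 9 h after the gavage, so the ethanol and the carbohydrate of the gavage differ together between the groups and cannot be told apart. Nothing in the labels ties each library to its own animal, so the p-values given here cover the spread between libraries, part of which may be technical.

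Cardiomyocytes take up glucose mainly through the insulin-regulated transporter GLUT4 (Slc2a4) and the basal transporter GLUT1 (Slc2a1), phosphorylate it with hexokinase, and convert it to pyruvate and lactate through glycolysis. Several steps have a muscle isozyme and a more widely expressed one. Txnip, a member of the alpha-arrestin family, binds thioredoxin and promotes the internalisation of glucose transporters, and its transcription is induced by glucose through the paired factors MondoA (Mlxip) or ChREBP (Mlxipl) with Mlx, which bind pairs of E-boxes called carbohydrate response elements.

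The libraries held 28838386 to 37762233 expected counts, with 27.8% to 31.9% on mitochondrially encoded genes. The 10 cardiomyocyte markers, all tested, summed to 36760, 64772 and 57912 CPM in ET replicates 1 to 3. In CONT replicates 1 to 3 they summed to 58573, 65323 and 68668 CPM. ET replicate 1 stood apart. Its cardiomyocyte sum was the lowest. Its 6 atrial markers summed to 9030 CPM, against 340 and 61.0 CPM in the other ET libraries. In CONT replicates 1 to 3 they summed to 122, 76.7 and 1638 CPM, so CONT replicate 3 was the next highest. The 8 fibroblast markers of ET replicate 1 summed to 1996 CPM, against 765 and 601 CPM in the other ET libraries and 669 to 781 CPM in CONT. Skeletal muscle markers were near 0 in every library, with 2.56 to 14.0 CPM in ET and 3.89 to 4.23 CPM in CONT over 12 genes, and Myog was at 0 throughout. Effective gene lengths, which the quantifier estimates for each library, were compared over all splits of 3 libraries against 3. The split with the most genes whose lengths did not overlap was taken as 2 library sets. These were ET replicate 1 with CONT replicates 1 and 2, and ET replicates 2 and 3 with CONT replicate 3. The lengths of 2237 of 9657 genes (23.2%) did not overlap between these sets, against 1212 (12.6%) between ET and CONT. Since the sets were chosen on this count, their count could not be below that of ET and CONT. The part of tissue makeup and of these sets in the differences given here was not tested, and in bulk tissue fewer cells of a type cannot be told apart from less RNA per cell.

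The promoters of Txnip and of its closest relative Arrdc4 are shown because both genes are textbook targets of MondoA. Each line gives the 200 bases before the start of transcription, 5′ to 3′ on the gene's strand, from RefSeq on GRCm38.p6. The Txnip stretch is chr3:96557757-96557956 on the plus strand, and its capitals mark, in order, the letters TGTTTAC (the FoxO form, here on the opposite strand, at bases -121 to -115) and the paired E-box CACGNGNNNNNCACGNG (bases -85 to -69). The Arrdc4 stretch is chr7:68749239-68749438 on the minus strand, and its capitals mark the E-box CACGTG (bases -193 to -188).

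Txnip promoter: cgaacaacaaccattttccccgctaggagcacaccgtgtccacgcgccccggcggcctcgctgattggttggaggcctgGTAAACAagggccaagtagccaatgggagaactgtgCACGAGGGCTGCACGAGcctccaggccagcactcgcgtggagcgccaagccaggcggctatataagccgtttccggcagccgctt

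Arrdc4 promoter: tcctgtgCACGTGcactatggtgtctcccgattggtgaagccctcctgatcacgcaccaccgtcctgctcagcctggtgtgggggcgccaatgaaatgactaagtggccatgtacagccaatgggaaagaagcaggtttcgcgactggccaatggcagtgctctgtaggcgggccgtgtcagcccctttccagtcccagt

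Motifs were searched on both strands in windows of 250 bases before to 50 bases after each start. A gene with several starts has several windows, and 33 genes of the set had 52 windows in all. The paired E-box form occurred in 16 of 32851 windows (0.0487%), and in 1 of the 52, that of Txnip. The E-box CACGTG was in 7.15% of all windows and in 6 of the 52, those of Arrdc4, Ldha, Mlxipl, Pfkfb2, Pfkfb3 and Pfkm. TGTTTAC was in 3.65% of all windows and in 2 of the 52, those of Txnip and Aldoc. The hypoxia response core ACGTG, whose letters overlap those of CACGTG, was in 19.6% of all windows and in 24 of the 52, which belong to 20 genes. These are matches of letters, not measured binding.

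Across the set the outermost genes were Txnip, with a mean of 774 CPM in ET and 360 CPM in CONT, and Eno3, the muscle enolase, with 432 CPM in ET and 888 CPM in CONT. Of the 35 genes tested, 13 were higher in ET (37.1%, beside 51.9% of all genes) and 22 lower (62.9%, beside 48.1%), with a median log2 fold change (ET over CONT) of -0.18, beside a median of 0.01 over all genes tested. No gene of the set passed the test over all genes. With edgeR and Benjamini-Hochberg adjustment 0 of 15727 genes (0.0%) reached an adjusted p under 0.05 (lowest 0.427), and 1360 (8.65%) had an unadjusted one under 0.05. With limma-voom these counts were 0 and 1267. DESeq2 called 185 genes (1.18%), among them Eno3 and Txnip. At an unadjusted p under 0.05 in edgeR, Txnip and Mlxip were higher in ET (5.71% of the 35, beside 4.19% of all genes) and Eno3 and Pgam2 were lower (5.71%, beside 4.46%). In CPM, ET and CONT were fully apart for 1 gene higher in ET (2.86%, beside 6.89% of all genes) and for 8 genes lower in ET (22.9%, beside 8.36%).

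Txnip (chr3:96557957-96561883 on GRCm38, as all gene positions here, plus strand) had 558, 822 and 942 CPM in ET replicates 1 to 3, against 339, 331 and 408 CPM in CONT replicates 1 to 3. Every ET library lay above every CONT library, ET replicate 1 being the lowest of its group. The means were 774 ± 197 CPM in ET and 360 ± 42.6 CPM in CONT (SD, n = 3 each), and the log2 fold change was 1.11 ± 0.25 (SE). Its adjusted p was 0.469 in edgeR and 0.00191 in DESeq2. On the length-scaled TPM scale the levels were 291, 369 and 373 TPM in ET and 146, 133 and 176 TPM in CONT, again without overlap. The log2 difference was 0.73 within the set of ET replicate 1 and 1.11 within the other set. The antisense gene Gm15441 overlaps 19.4% of the Txnip exon bases and was listed at 0.320 to 0.617 CPM in ET and 0.112 to 0.444 CPM in CONT, so reads from the shared bases are uncertain in origin.

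Arrdc4 (chr7:68736995-68749241, minus strand), the other glucose-responsive arrestin that limits glucose uptake, had 15.3, 13.4 and 7.78 CPM in ET and 12.2, 10.8 and 8.17 CPM in CONT. The groups overlapped, and the lowest of the 6 libraries was an ET one. Its log2 fold change was 0.23 ± 0.28, with an adjusted p of 0.795 in edgeR, and ran from 0.04 without ET replicate 1 to 0.46 without ET replicate 3. Per length, Txnip was by far the more abundant of the pair. It averaged 344 ± 46.4 TPM in ET and 152 ± 21.9 TPM in CONT, and Arrdc4 averaged 4.53 ± 1.60 TPM in ET and 3.01 ± 0.558 TPM in CONT.

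Mlxip (chr5:123394798-123457932), which encodes the glucose-sensing factor MondoA, had 41.5, 58.4 and 54.8 CPM in ET and 37.1, 38.6 and 42.2 CPM in CONT. Only ET replicate 1 fell within the CONT range, and in TPM the groups did not overlap (9.05, 10.8 and 8.61 in ET, 6.25, 6.18 and 7.03 in CONT). Its log2 fold change was 0.39 ± 0.16, with an unadjusted p of 0.049 and an adjusted p of 0.572 in edgeR. Mlxipl (chr5:135089890-135138382), which encodes the related factor ChREBP, had 27.4, 25.5 and 20.3 CPM in ET and 29.4, 32.1 and 30.7 CPM in CONT. Here all ET libraries lay below all CONT libraries in CPM, while the TPM ranges overlapped. The log2 fold change was -0.33 ± 0.15, with an adjusted p of 0.573 in edgeR.

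**Figure D1:**
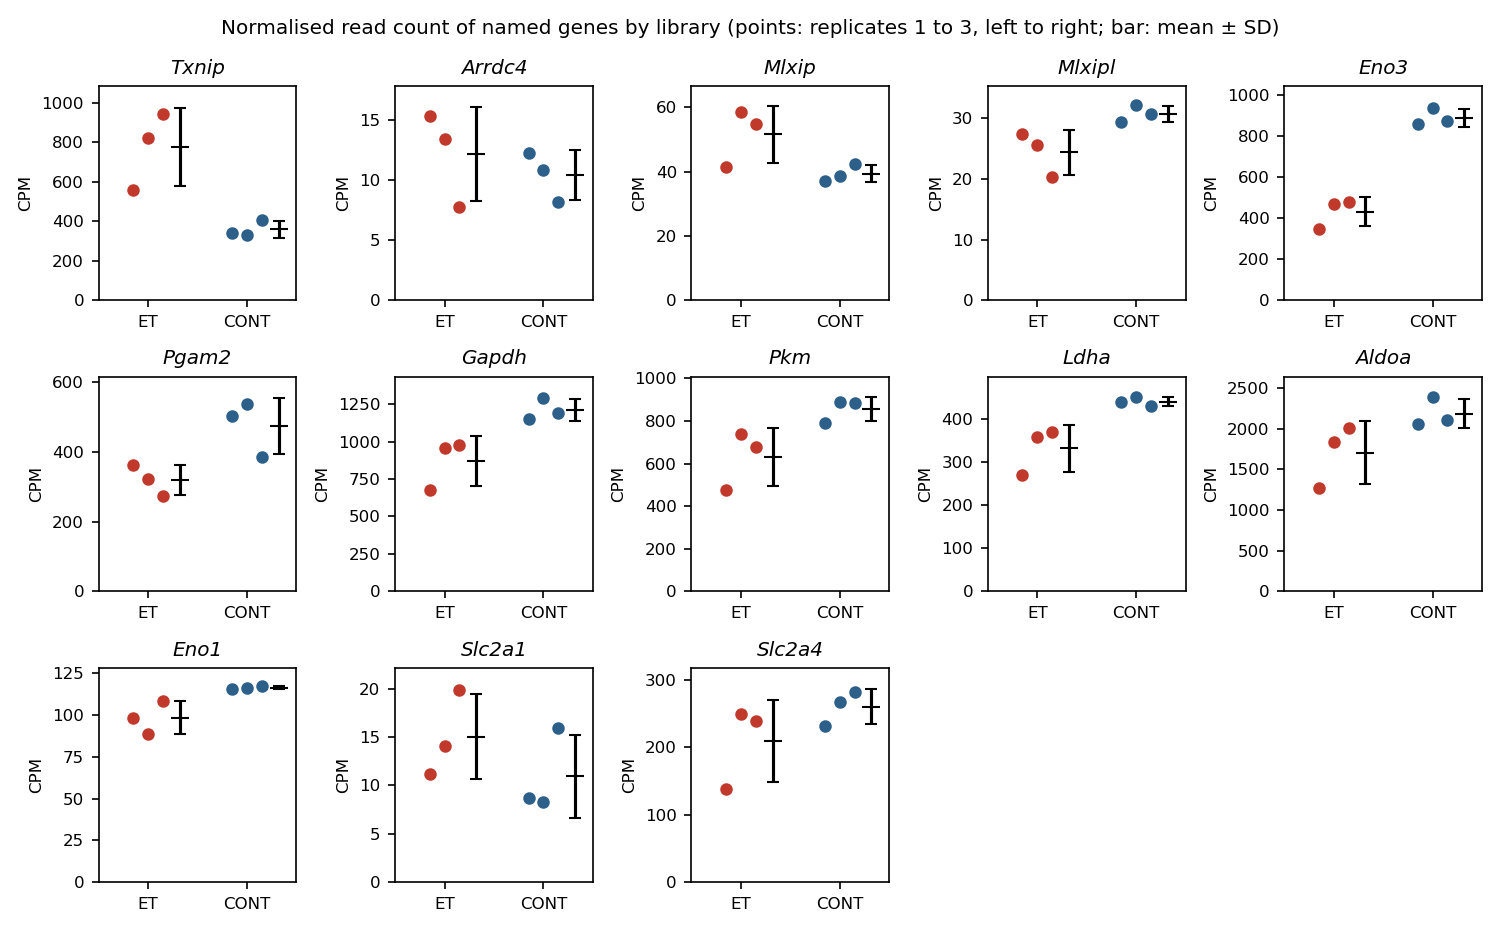
Normalised read count (CPM, y axis from 0) of the 13 genes named with full values, in ET (red) and CONT (blue). Points are libraries and bars the mean ± SD of 3. Txnip is the only one of these genes with all ET points above all CONT points, and Eno3 shows the widest gap in the other direction, with 350 to 478 CPM in ET and 856 to 936 CPM in CONT.

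Among the glucose transporters, Slc2a1 (chr4:119108711-119137983) had 11.2, 14.1 and 19.8 CPM in ET and 8.67, 8.28 and 15.9 CPM in CONT. The groups overlapped because CONT replicate 3 stood above 2 of the ET libraries. The log2 fold change was 0.46 ± 0.32, with an adjusted p of 0.658 in edgeR, and it was 0.20 without ET replicate 3, 0.32 without CONT replicate 1, 0.29 without CONT replicate 2 and 0.84 without CONT replicate 3. Slc2a4 (chr11:69942539-69948188) had 139, 249 and 238 CPM in ET and 231, 267 and 282 CPM in CONT. ET replicate 1 was far below the other 5 libraries, which lay close together, and the log2 fold change of -0.32 ± 0.25 (adjusted p 0.694 in edgeR) was -0.08 without that library. Slc2a3, the high-affinity transporter GLUT3 of neurons and blood cells, stood at 1.62 to 2.27 CPM in ET and 1.54 to 1.89 CPM in CONT.

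Hexokinase catalyses the first step, and the phosphofructokinases the committed one. Hk1, the constitutive hexokinase, had 97.4 to 146 CPM in ET and 109 to 127 CPM in CONT, and Hk2, the insulin-responsive one, had 73.5 to 179 CPM in ET and 132 to 199 CPM in CONT. Gpi1, which interconverts glucose and fructose phosphates, had 386 to 499 CPM in ET and 434 to 500 CPM in CONT. Pfkm, the muscle phosphofructokinase, had 323 to 662 CPM in ET and 555 to 766 CPM in CONT, and the liver and platelet forms Pfkl and Pfkp overlapped likewise. The log2 fold changes of these 6 genes lay between -0.25 and 0.085, the lowest being that of Pfkm and the highest that of Hk1. The 4 PFKFB genes encode enzymes that set the level of a fructose bisphosphate that activates phosphofructokinase. Pfkfb3 had a log2 fold change of 0.14, and Pfkfb1, Pfkfb2 and Pfkfb4 had -0.20, -0.28 and -0.28. All 4 overlapped between the groups.

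From aldolase to lactate dehydrogenase all 11 genes tested had lower means in ET, with a median log2 fold change of -0.36, and 7 of them did not overlap between the groups in CPM (beside 8.36% of all genes). On the TPM scale 10 of the 11 were lower, Eno1 being the exception, and 3 did not overlap (beside 3.27% of all genes). This stretch of the pathway was picked out after its values were seen, and no test was run on it. The 10 cardiomyocyte markers also had a median log2 fold change of -0.36, with 8 lower in ET and 2 higher. The part of tissue makeup in the values of this stretch was not tested. Eno3 (chr11:70657202-70662513, plus strand), which makes phosphoenolpyruvate in adult striated muscle, had 350, 469 and 478 CPM in ET and 856, 936 and 872 CPM in CONT. Its mean was 432 ± 71.6 CPM in ET and 888 ± 42.6 CPM in CONT, its log2 fold change -1.04 ± 0.20, and its adjusted p 0.427 in edgeR and 2.92e-05 in DESeq2. The highest ET library, at 478 CPM, lay far below the lowest CONT library, at 856 CPM. In TPM the values were 368, 394 and 362 in ET and 661, 693 and 720 in CONT, and the log2 differences within the library sets were -1.35 and -0.88.

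Pgam2 (chr11:5801640-5803733), the muscle phosphoglycerate mutase that acts just before enolase, had 361, 322 and 273 CPM in ET and 503, 536 and 384 CPM in CONT. Its CPM ranges did not overlap but its TPM ranges did (342 to 571 in ET, 523 to 616 in CONT), and the log2 fold change was -0.57 ± 0.21 (unadjusted p 0.029, adjusted p 0.531 in edgeR). Gapdh (chr6:125161715-125166467), the glyceraldehyde phosphate dehydrogenase often used as a reference transcript, had 674, 959 and 976 CPM in ET and 1150, 1294 and 1187 CPM in CONT, without overlap in CPM or TPM. Its log2 fold change was -0.48 ± 0.22, with an adjusted p of 0.574 in edgeR. It has 72 near-identical copies, counted by transcript, in the annotation. They were listed together at no more than 3.06% of its CPM in either group, so its count is uncertain by the reads they share.

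Ldha (chr7:46841475-46855627), the lactate dehydrogenase subunit of fast muscle, had 270, 358 and 369 CPM in ET and 438, 451 and 430 CPM in CONT. The groups were apart in CPM and in TPM, with ET replicate 1 the lowest library, and the log2 fold change was -0.40 ± 0.19 (adjusted p 0.577 in edgeR). Pkm (chr9:59656368-59679375), the pyruvate kinase of muscle, had 478, 739 and 676 CPM in ET and 791, 888 and 886 CPM in CONT. Aldoa (chr7:126795234-126800751), the muscle aldolase, had 1267, 1837 and 2014 CPM in ET and 2054, 2386 and 2107 CPM in CONT. Both were lower in ET without overlap in CPM only, with log2 fold changes of -0.44 ± 0.22 for Pkm (adjusted p 0.585 in edgeR) and -0.36 ± 0.23 for Aldoa (adjusted p 0.649). Eno1 (chr4:150236721-150248879), the widely expressed enolase, had 98.1, 88.4 and 108 CPM in ET and 115, 116 and 117 CPM in CONT. Its difference was small (log2 fold change -0.24 ± 0.14, adjusted p 0.626 in edgeR) and was above 0 on the TPM scale (0.037). Eno1 has 4 near-identical copies, counted by transcript. For the most abundant copy gene the ET mean was 6.472 CPM and the CONT mean 5.345 CPM, beside 98.2 and 116 CPM for Eno1. The other copy genes were at or below 0.645 CPM in both groups. Triosephosphate isomerase Tpi1, phosphoglycerate kinase Pgk1, the widely expressed mutase Pgam1 and the heart lactate dehydrogenase subunit Ldhb overlapped between the groups, with log2 fold changes of -0.32, -0.22, -0.23 and -0.24.

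Ratios of isozymes within a library do not depend on how libraries are scaled. The Eno3 to Eno1 ratio in TPM was 5.02, 5.64 and 4.75 in ET and 10.3, 10.7 and 8.33 in CONT. Every ET library was below every CONT library, and the mean log2 ratio was 2.36 ± 0.13 in ET and 3.28 ± 0.19 in CONT, a difference of -0.92. The Pgam2 to Pgam1 log2 ratio was 4.01 ± 0.028 in ET and 4.36 ± 0.26 in CONT, also without overlap. The Hk2 to Hk1 log2 ratio was 0.71 ± 0.079 in ET and 1.30 ± 0.17 in CONT without overlap, but as a ratio of CPM its difference was -0.33 with overlap, and the effective length of Hk2 varied 1.95-fold between libraries. For Slc2a4 over Slc2a1 the difference was -0.76, overlapping in TPM and not in CPM. Pfkm over Pfkl (-0.13), Ldhb over Ldha (0.10), Pygm over Pygb (-0.73) and Aldoa over Aldoc (-0.29, with Aldoc near 0) overlapped between the groups. The ratios are descriptions of 3 libraries against 3, and no test was run on them.

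**Figure D2:**
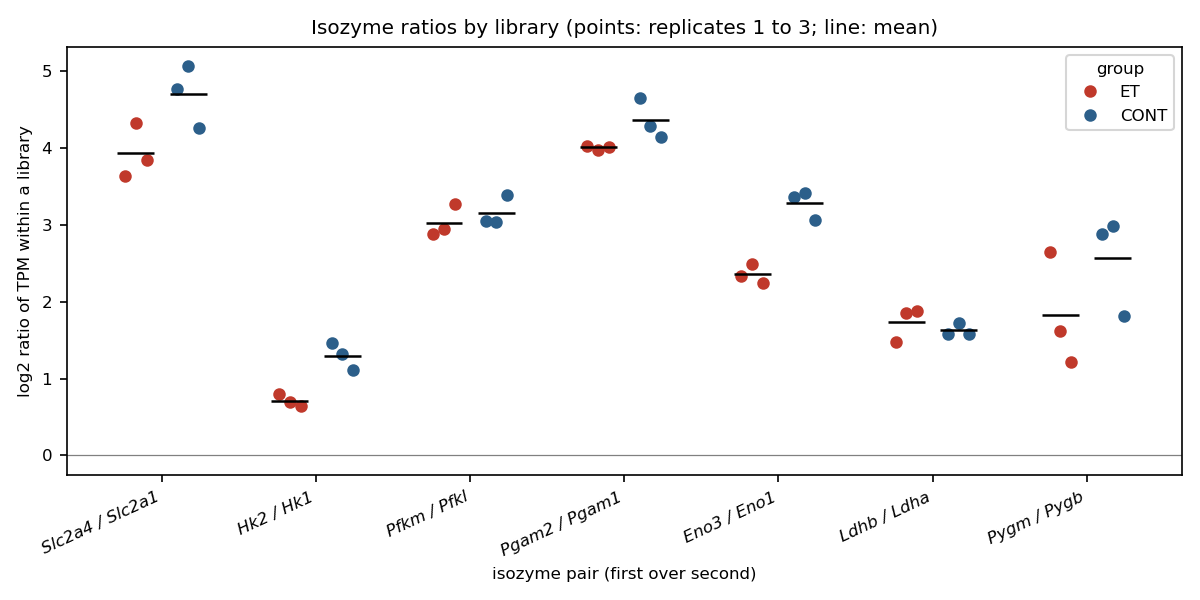
Log2 ratio of TPM of isozyme pairs within each library (y axis), by pair (x axis), with ET in red to the left of CONT in blue. Points are libraries and lines group means. The Eno3 / Eno1, Pgam2 / Pgam1 and Hk2 / Hk1 pairs show ET below CONT without overlap, and Ldhb / Ldha overlaps.

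On the side paths more means were higher than lower in ET. Of 7 genes of glycerol phosphate and glycogen metabolism, again grouped after their values were seen, 6 were higher in ET, with a median log2 fold change of 0.10, and all overlapped between the groups in CPM. With a term for the library sets, 4 of the 7 were below 0. Gpd1, the cytosolic glycerol phosphate dehydrogenase, had 27.3, 67.0 and 79.0 CPM in ET and 33.4, 38.6 and 43.9 CPM in CONT. ET replicate 1 was the lowest of all 6 libraries and the other ET libraries the highest. Pygb, the brain form of glycogen phosphorylase, had 205, 617 and 749 CPM in ET and 288, 299 and 538 CPM in CONT, and Gys1, the muscle glycogen synthase, had 36.7, 93.6 and 107 CPM in ET and 55.3, 69.4 and 90.0 CPM in CONT, in the same pattern. Pygm, the muscle glycogen phosphorylase, had 386 to 887 CPM in ET and 672 to 880 CPM in CONT and a log2 fold change of -0.13. The phosphoglucomutases Pgm1 and Pgm2 and the mitochondrial dehydrogenase Gpd2 had log2 fold changes of 0.02, 0.09 and 0.10. In TPM the ranges of Gpd2 did not overlap (1.70 to 2.00 in ET, 1.37 to 1.67 in CONT).

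On the TPM scale, 3 of the 35 genes were higher in ET without overlap, Txnip, Mlxip and Gpd2 (8.57%, beside 12.3% of all genes), and 4 were lower, Eno3, Gapdh, Ldha and Hk2 (11.4%, beside 3.27%). The median log2 fold change of all genes, 0.01 under TMM scaling, was 0.15 and 0.18 in TPM with a pseudocount of 1 and 0.1, and 0.12 with library totals only. Under these scalings 18, 18 and 20 of the 35 genes were below 0. The log2 fold changes of Txnip ranged from 0.92 to 1.42 and those of Eno3 from -1.12 to -0.88 over 15 alternative settings.

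ET replicate 1 was the lowest library for 20 of the 35 genes and for 13 of the 17 glycolytic enzymes tested from hexokinase to lactate dehydrogenase, beside 24.3% of all genes tested. Summed TPM over those enzymes was 4910, 5947 and 5441 in ET and 6017, 6397 and 6874 in CONT, with all ET libraries below CONT. With all libraries, 16 of the 17 enzymes had lower means in ET (median -0.24), and without ET replicate 1 there were 11 (median -0.14). Over the whole set the count of lower genes was 22 with all libraries and 17 without ET replicate 1, with a median of 0.01. From aldolase to lactate dehydrogenase 10 of 11 were below 0 without it, with a median of -0.26, and the log2 fold changes were then -0.31 for Gapdh, -0.26 for Pkm, -0.26 for Ldha and -0.17 for Aldoa. Between ET and CONT libraries of the set that holds ET replicate 1, 27 genes were lower (median -0.51), and within the other set 20 were lower (median -0.068). A fit with a term for the sets gave 1 gene of the set higher in ET at an unadjusted p under 0.05 in edgeR (beside 5.32% of all genes) and 9 lower (beside 4.72%). Without ET replicate 1 and CONT replicate 3, the libraries with the highest atrial markers, group and set coincide. In that fit 7 of the 35 had an adjusted p under 0.05 in edgeR (beside 5.27% of all genes). Above 0 were Slc2a1, Gpd1, Pygb, Txnip and Mlxip (beside 529 of 15714 over all genes). Below 0 were Pgam2 and Eno3 (beside 299 of 15714, or 1.9% of all genes).

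**Figure D3:**
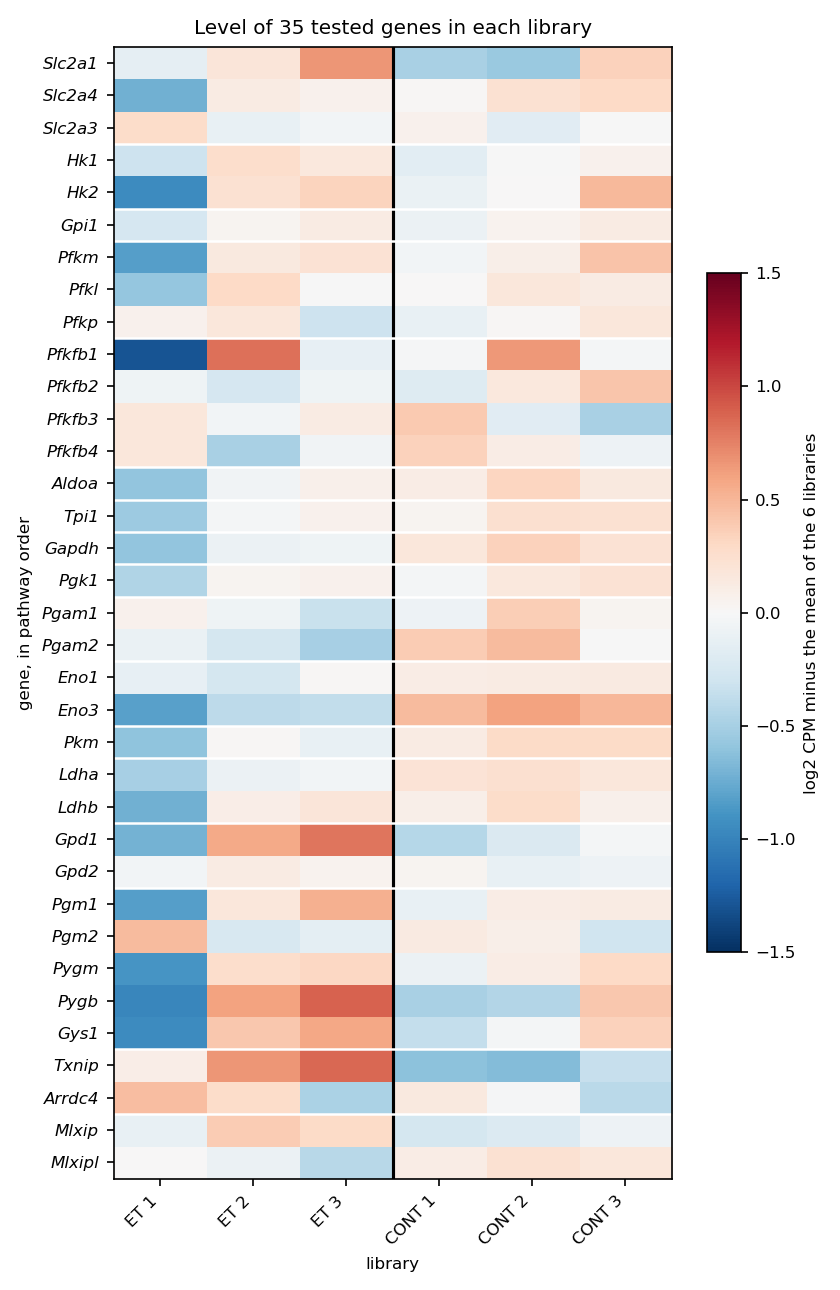
Log2 CPM of the 35 genes tested (rows, in pathway order, white lines between roles) in the 3 ET and 3 CONT libraries (columns), as the difference from each gene's mean over the 6 libraries. The ET replicate 1 column is the lowest of the 6 for 20 of the 35 genes, while the Txnip row is blue in all 3 CONT libraries and strongest red in ET replicates 2 and 3.

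**Figure D4:**
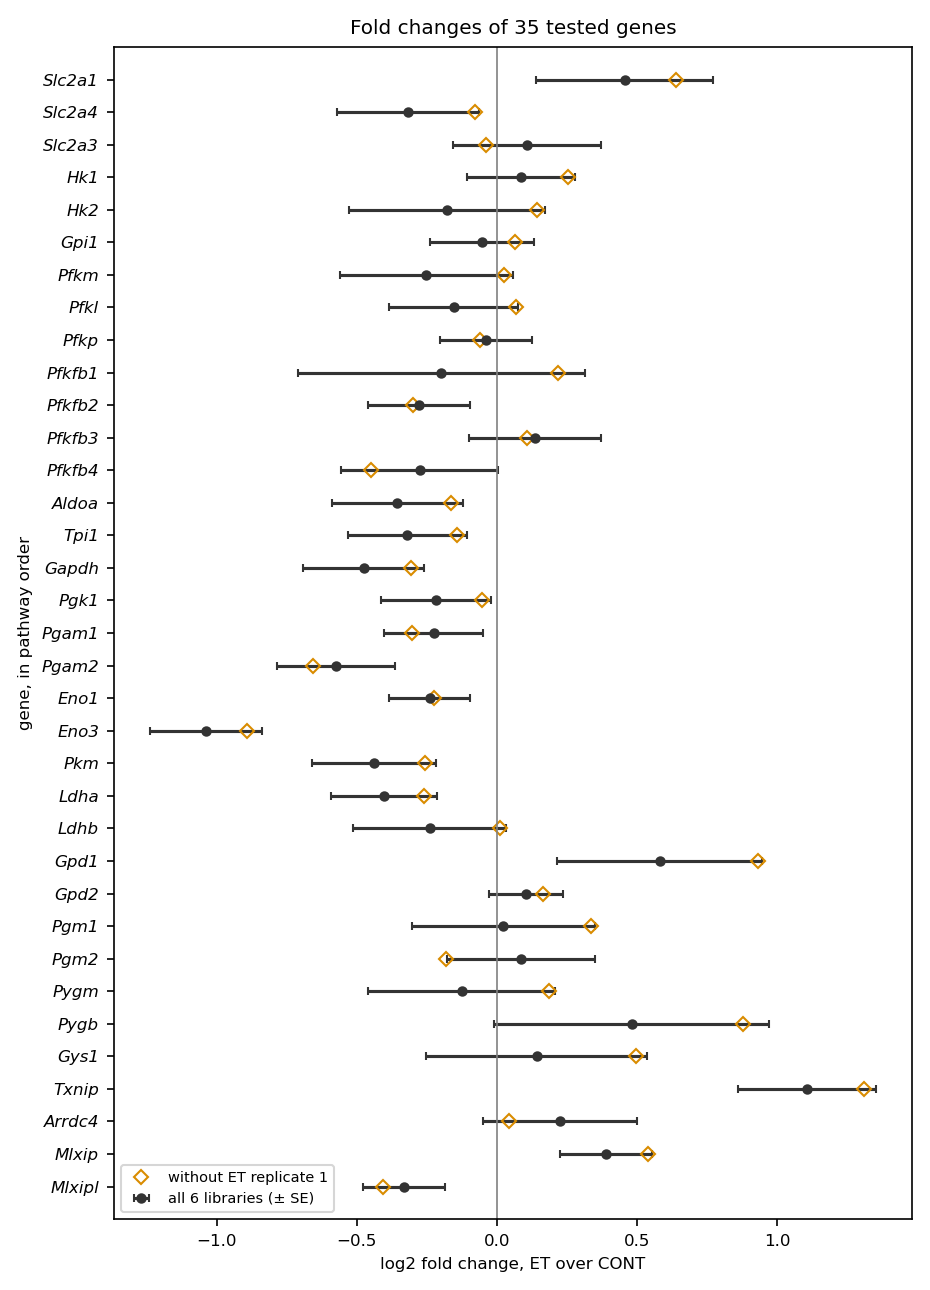
Log2 fold change, ET over CONT (x axis), of the 35 genes tested, with all 6 libraries (dark points, ± SE) and without ET replicate 1 (open diamonds). Txnip at 1.11 and Eno3 at -1.04 are the outermost points, and leaving out ET replicate 1 shifts most glycolytic enzymes to the right, closer to or past 0.

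Other genes of glucose handling gave no edgeR call over all genes. Of 16 genes on side branches of glycolysis 11 were higher in ET. Gfpt2, which starts the hexosamine pathway, had 31.9, 15.4 and 26.9 CPM in ET and 8.92, 11.2 and 13.3 CPM in CONT (log2 fold change 1.15, adjusted p 0.478 in edgeR). Uap1, a later hexosamine enzyme, had a log2 fold change of 0.54 and H6pd, the pentose phosphate enzyme of the endoplasmic reticulum, 0.80, and all 3 did not overlap between the groups. Another 3 genes of this list, Rpia, Akr1b3 and Taldo1, were lower in ET without overlap (-0.43, -0.37 and -0.23), where 6.89% of all genes were higher and 8.36% lower without overlap. These 3 lower genes were named after their values were seen. Of 8 lactate and pyruvate transport genes 4 were higher and 4 lower, and Mpc2, a subunit of the mitochondrial pyruvate carrier, had 131, 181 and 171 CPM in ET and 240, 275 and 197 CPM in CONT without overlap (-0.56, adjusted p 0.536 in edgeR). Of 7 other alpha-arrestins and thioredoxin genes 3 were higher, and Arrdc3 had 29.9, 34.1 and 26.6 CPM in ET and 13.9, 13.4 and 25.1 CPM in CONT (0.79, adjusted p 0.515 in edgeR). Of 18 regulators of glucose uptake and use 16 were higher. Among them Irs1, the insulin receptor substrate, was at 1.28 with overlap in CPM (adjusted p 0.533 in edgeR). Foxo1, a factor restrained by insulin, was at 0.27 without overlap (adjusted p 0.574 in edgeR). Of 23 further glycogen genes 14 were higher. Stbd1, which tethers glycogen to membranes, was at 1.13 with overlap in CPM (adjusted p 0.530 in edgeR). Its log2 difference was 1.82 within the set of ET replicate 1 and 0.28 within the other set. Of 10 hypoxia-responsive genes outside glycolysis 5 were higher and 5 lower, with Ddit4 at 1.22 and Vegfa at -0.64. Of 9 other transporters and hexokinases 7 were higher, and Slc2a9, a urate and glucose transporter, had -0.78.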

How the data were processed

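Left ventricle RNA was measured in 3 ET and 3 CONT libraries. STAR 2.7.0f was the aligner, RSEM 1.2.31 the quantifier and mm10 the build, per the submitters' processing notes. Strand use and the annotation release: not given in the sources used here. The authors deposited expected counts per gene in 1 table, not normalized, and TPM and FPKM in a file per library, per the file headers. For count tests these estimates were rounded. FPKM gave the effective gene lengths and TPM the levels per length.

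The filter was filterByExpr in edgeR (at least 10 counts, total at least 15) and the scaling TMM. The test of ET against CONT was the robust quasi-likelihood test in edgeR, two-sided, with Benjamini-Hochberg adjustment over all 15727 genes tested and a threshold of 0.05. limma-voom, DESeq2, limma-trend on TPM (log2 scale, pseudocount 1 or 0.1), other scaling, no filter, a library set term and leaving out libraries were alternatives. The fits were tested on simulated data. Software was Python 3.11.15 (numpy 2.4.6, pandas 2.3.3, matplotlib 3.10.9) and R 4.3.3 (DESeq2 1.42.0, limma 3.58.1, edgeR 4.0.16). All 37 rows were found in GENCODE vM21 (GRCm38), which gave positions and exon overlaps. Near-identical copies were transcripts with at least 95% identity over at least 50% of a gene's transcript.

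Named with full values were genes of the set with a mean CPM of at least 1 whose ranges did not overlap or whose unadjusted p was under 0.05, and Txnip, Arrdc4, Mlxip, Mlxipl, Slc2a1 and Slc2a4. The genes and lists were chosen with earlier results of these data known. Replicates are numbered in accession order, which pairs no libraries. The value of 1 gene outside the set is not reported here.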

Additional observations from a re-analysis of the deposited data

How the results depend on the processing

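No paired analysis was possible because replicates are numbered in accession order only. Genes called over all genes numbered 0 in edgeR and limma-voom, 185 in DESeq2, 1 and 2 in limma-trend fits of TPM with a pseudocount of 1 and 0.1, and 828 in edgeR without ET replicate 1 and CONT replicate 3, where group and library set coincide. With 1 library left out the count stayed 0. Genes of the set with an unadjusted p under 0.05 numbered 4 in edgeR (1360 of 15727 over all genes) and 7 in DESeq2 (1631 of 15727). In edgeR they numbered 10 with a library set term (1579 of 15727) and 10 of 35 without those 2 libraries (4360 of 15714, about the same share). With 1 library left out they numbered 2 to 7. They were 7 without ET replicate 1 (2610 of 16056 over all genes) and 2 without CONT replicate 1 (565 of 16223). Genes lower in ET without overlap in CPM numbered 8 (beside 8.36% of all genes), and 4 in TPM (beside 3.27%). Those higher numbered 1 (beside 6.89%), and 3 in TPM (beside 12.3%). Genes higher without overlap numbered 2 with library totals only, 12 without ET replicate 1 and CONT replicate 3, and 1 to 8 with 1 library left out. For these settings the share of all genes was not counted, and ranges of fewer libraries overlap less often, so nothing is concluded from these counts. Among the 13 genes named with full values 2 signs reversed: Eno1 had 0.037 and 0.038 in the TPM fits and Arrdc4 -0.10 without the 2 libraries. Other genes of the set near 0 also reversed, among them Gpi1 (0.036) and Pfkp (0.079) with library totals only. Hk2 reversed more widely. At an unadjusted p under 0.05 in edgeR it was lower in ET with the library set term and higher without the 2 libraries. The Hk2 to Hk1 difference was -0.33 as a CPM ratio, and Pygm over Pygb was -1.52 without the 2 libraries. The cause was not tested. Of the other comparisons of named genes 185 kept direction and side of the threshold, and 7 newly passed it. Genes of the set below 0 ranged from 17 to 26 over the alternatives, and the median log2 fold change of the whole set from -0.29 to 0.01. Aldoc and the second Aldoa row had too few counts to be tested.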

Other observations

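Pck1, the gluconeogenic carboxykinase, had 19.7, 0.353 and 93.0 CPM in ET replicates 1 to 3 and 1.92, 0.300 and 7.43 CPM in CONT replicates 1 to 3. Summed hepatocyte markers were 122, 7.17 and 104 CPM in ET and 7.72, 6.33 and 24.6 CPM in CONT, and summed white adipocyte markers were 86.1, 1.32 and 1.92 CPM in ET and 8.89, 0.637 and 29.1 CPM in CONT. The hepatocyte sum of ET replicate 1 came mainly from Ahsg at 79.7 CPM and Cyp2e1 at 36.5 CPM, with Alb at 2.16 CPM. In ET replicate 3 Alb was at 46.8 CPM, Ahsg at 17.8 CPM and Cyp2e1 at 5.96 CPM. What part these marker signals had in the Pck1 values was not tested. Of 5 gluconeogenesis genes 2 were higher in ET and 3 lower.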
